A study of Mus musculus with 35 samples.

Results

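The genes of cholesterol synthesis, uptake and efflux were examined over 1 day in Tregs of 2 tissues. Tregs are T cells with a regulatory role that keep other immune cells in check. The set was made of the rows of the gene count table that carry 32 symbols: 20 enzymes of sterol synthesis, 5 regulators of the SREBP transcription factors, 4 genes of the LXR and efflux arm and 3 genes of sterol transport inside the cell. All 32 were found among the 55011 symbols of the table, and all 32 were among the 15910 genes with enough counts to be tested.

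Each library was made from 1000 CD4+ CD25+ cells, double-sorted from visceral adipose tissue (VAT) or from spleen. The donors of both tissues were WT C57BL/6 males, retired breeders aged over 35 weeks, housed in 12 h light and 12 h dark. By these labels the 12 groups differed in tissue and in hour. Hours are given as Zeitgeber time (ZT), which counts from lights on: cells were collected at ZT0, ZT4, ZT8, ZT12, ZT16 and ZT20, with darkness from ZT12. There were 3 libraries for every tissue and hour, apart from 2 for VAT at ZT20, which gave 17 VAT and 18 spleen libraries. No label ties a library to an animal, so the p-values rest on a spread between libraries that may be technical. The sort used surface CD4 and CD25, and no Foxp3 reporter is named.

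Total counts were 2178238 to 6260185 in VAT and 2069319 to 5328695 in spleen. Foxp3, the defining Treg factor, averaged 711 CPM (the read count of a gene scaled to a common library total, with TMM factors) in VAT against 521 CPM in spleen. The summed level of 5 VAT Treg markers was 7808 to 9975 CPM in VAT libraries and 168 to 352 CPM in spleen libraries, as the tissue labels say. Adipocyte, stromal, endothelial and neutrophil markers each summed to 9.05 CPM or less in every library. Dendritic cell markers summed to 14.5 to 54.9 CPM in VAT and 11.5 to 34.8 CPM in spleen. CD8 T cell markers summed to 1.8 to 36.8 CPM in VAT and 6.36 to 21.2 CPM in spleen. Erythroid markers reached 7.98 CPM in VAT and 104 CPM in spleen. Libraries also differed in how expression tilted with transcript length. The 2 VAT libraries of ZT20 had the steepest tilt toward short transcripts, with slopes of -0.0914 and -0.079 log2 units per doubling of length against -0.0656 to 0.0582 in the other 33.

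Cholesterol is built in the endoplasmic reticulum from acetyl-CoA. The early steps give mevalonate and then farnesyl and geranylgeranyl diphosphate, which also serve protein prenylation, and the later steps turn squalene into lanosterol and lanosterol into cholesterol. When membrane sterol is low, SCAP carries SREBP proteins to the Golgi, where they are cut and become transcription factors for the synthesis genes. INSIG proteins hold SCAP back when sterol is high. LXR receptors respond to oxidised sterols and switch on the exporters ABCA1 and ABCG1 and the ligase MYLIP, which removes lipoprotein receptors. In T cells sterol synthesis is known to rise on activation and growth, and LXR is known to limit it.

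Promoter windows of the RefSeq annotation (GRCm38.p6, 250 bases before to 50 after each start) were found for 26 of the 32 genes. Missing entries were those of Fdps, Fdft1, Sqle, Abcg1, Stard4 and Npc1. Each window was searched on both strands for the sterol regulatory element core TCACNCCAC, the NF-Y box CCAAT, the E-box CACGTG and the LXR direct repeat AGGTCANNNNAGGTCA. CCAAT was in the windows of 22 of the 26 genes, 16 of 17 enzymes among them, and in those of 41.1% of the 27025 gene symbols in the table. The E-box was in 6 of 26 (Hsd17b7, Sc5d, Dhcr7, Insig1, Scap and Abca1), against 8.09% of symbols. The sterol element core was in 1 of 26, that of Hmgcs1 (1.44% of symbols), and the LXR repeat in 0 of 26 (0.0148% of symbols). No 2 matches overlapped. A match is a string of letters and not a measured site.

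The 250 bases before the start are shown for 5 genes on which the results turn: an early enzyme with the sterol element core, the enzyme whose time course differed between the tissues, the enzyme with the largest tissue difference, the SREBP regulator with the largest tissue difference, and the exporter that was lowest in VAT. Capitals mark the matches, written 5′ to 3′ on the gene's strand, and ATTGG is CCAAT on the other strand. The windows are chr13:119690101-119690350 (plus strand), chr5:4104698-4104947 (minus), chr1:169969206-169969455 (minus), chr5:28071162-28071411 (plus) and chr4:53159896-53160145 (minus).
Hmgcs1: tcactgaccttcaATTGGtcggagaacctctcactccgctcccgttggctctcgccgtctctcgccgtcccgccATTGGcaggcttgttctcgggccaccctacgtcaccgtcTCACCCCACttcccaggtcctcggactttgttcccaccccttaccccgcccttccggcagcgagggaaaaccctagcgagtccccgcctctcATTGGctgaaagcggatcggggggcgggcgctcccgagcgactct
Cyp51: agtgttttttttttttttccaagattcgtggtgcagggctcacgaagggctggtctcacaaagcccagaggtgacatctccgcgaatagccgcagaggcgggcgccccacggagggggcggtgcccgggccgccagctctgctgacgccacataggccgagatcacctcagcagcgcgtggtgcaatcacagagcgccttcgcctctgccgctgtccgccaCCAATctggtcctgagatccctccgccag
Hsd17b7: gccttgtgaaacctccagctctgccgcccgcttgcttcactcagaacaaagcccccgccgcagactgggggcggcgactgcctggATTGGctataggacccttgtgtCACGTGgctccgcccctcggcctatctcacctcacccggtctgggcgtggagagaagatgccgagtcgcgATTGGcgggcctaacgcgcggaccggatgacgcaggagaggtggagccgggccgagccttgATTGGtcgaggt
Insig1: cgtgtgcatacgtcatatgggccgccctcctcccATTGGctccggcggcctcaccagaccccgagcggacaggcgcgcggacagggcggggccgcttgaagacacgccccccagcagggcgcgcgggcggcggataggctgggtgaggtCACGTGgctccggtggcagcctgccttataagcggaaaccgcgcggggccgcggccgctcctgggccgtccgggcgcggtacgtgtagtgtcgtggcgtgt
Abca1: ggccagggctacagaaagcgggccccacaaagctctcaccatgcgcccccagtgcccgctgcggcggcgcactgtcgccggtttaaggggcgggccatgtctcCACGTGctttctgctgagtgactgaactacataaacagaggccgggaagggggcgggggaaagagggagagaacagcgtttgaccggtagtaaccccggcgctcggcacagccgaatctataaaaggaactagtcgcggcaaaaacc
In the Hmgcs1 sequence the sterol element core TCACCCCAC begins 137 bases before the start, and 3 NF-Y boxes begin 237, 176 and 45 bases before it. Cyp51 holds 1 NF-Y box, 29 bases before the start. Hsd17b7 holds NF-Y boxes 165, 73 and 12 bases before its start and an E-box 143 bases before it. Insig1 has an NF-Y box and an E-box, 216 and 101 bases before the start, and Abca1 an E-box at 147 bases and no NF-Y box. All these starts are those of RefSeq. In GENCODE the genes Cyp51, Hsd17b7 and Insig1 begin within the printed bases, at 4104746, 169969241 and 28071363. Hmgcs1 begins beyond its printed bases, at 119690379, so its distances are longer by that start. By those positions the Cyp51 box and the Hsd17b7 box nearest the start lie inside the gene and not before it.

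The first comparison set VAT Tregs against spleen Tregs over all hours. Most of the synthesis enzymes and 4 of the 5 SREBP regulators were higher in VAT, while both sterol exporters were lower. Of the 32 genes 22 were higher, 5 lower and 5 not called at an adjusted p under 0.05 (edgeR's quasi-likelihood test with Benjamini-Hochberg adjustment over all 15910 genes). These counts stand on a wide background, since 62.2% of all genes were called, 28.4% higher and 33.8% lower. The median log2 difference, VAT minus spleen, was 0.30 over the 32 genes, from -1.45 to 1.74, and -0.10 over all genes. Less RNA of a gene per cell and fewer cells that hold it cannot be told apart in bulk libraries.

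The scaling between tissues bears on the smaller differences. When scaled by library totals and not by TMM factors, the median of all genes moved to -0.45, 13 of the 32 were called higher and 10 lower, and all genes split into 2856 higher and 8514 lower in place of 4520 and 5376. Relative to the median of all genes, 25 of the 32 stood above and 7 below with either scaling. This count can hardly move with the scaling, which shifts all genes of a library alike, so it does not test the scaling. No VAT library fell below any spleen library for 4 of the 32 genes (Hsd17b7, Sc5d, Insig1 and Stard4, 6.4% of all genes), and 0 of the 32 showed the opposite separation (4.02%). At every hour the VAT mean was the higher for 15 genes (23.7% of all genes) and the lower for 4 (26.7%).

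**Figure D1:**
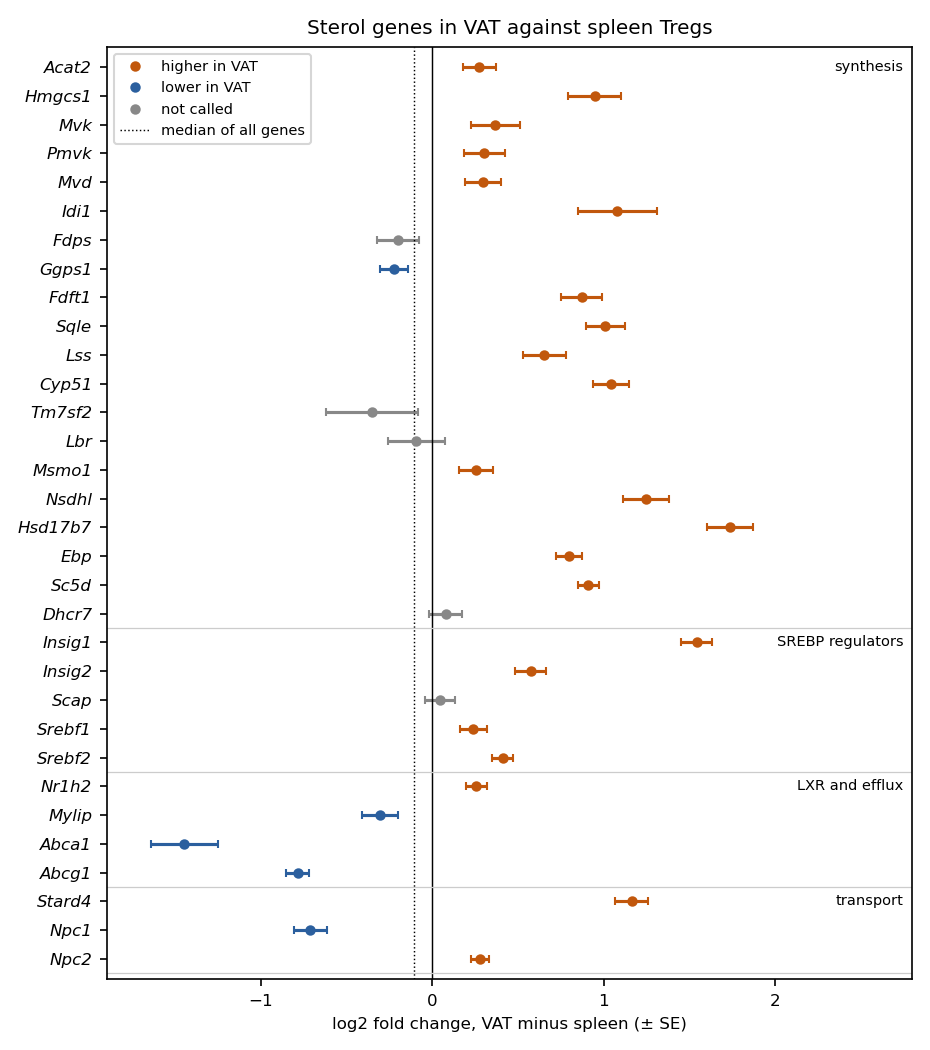
Log2 fold change, VAT minus spleen, for the 32 genes in pathway order, with bars of 1 standard error and the median of all genes as a dotted line (-0.10). Hsd17b7 (1.74) and Insig1 (1.54) lie farthest to the right, and Abca1 (-1.45), Abcg1 (-0.79) and Npc1 (-0.71) farthest to the left.

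Among the 8 enzymes that lead to farnesyl and geranylgeranyl diphosphate, 6 were higher in VAT, 1 was lower and 1 was not called, with a median log2 difference of 0.30. Hmgcs1, the HMG-CoA synthase gene (chromosome 13, 119690379 to 119708260), ranged in VAT from 81.0 to 275 CPM with a median of 113, and in spleen from 34.0 to 113 CPM with a median of 70.9. The ranges overlapped, but the VAT mean was above the spleen mean at all 6 hours, and the log2 difference was 0.95 ± 0.15 (SE, adjusted p = 6.5e-06). Idi1, the isopentenyl diphosphate isomerase gene, averaged 6.22 ± 2.39 CPM (SD, n = 17) in VAT against 2.92 ± 1.27 CPM (SD, n = 18) in spleen, a log2 difference of 1.08 ± 0.23 that rested on only 384 and 206 counts in all. The other 4 called higher differed by far less: the thiolase gene Acat2 by 0.27 ± 0.10, the mevalonate kinase gene Mvk by 0.37 ± 0.14, the phosphomevalonate kinase gene Pmvk by 0.30 ± 0.12 and the decarboxylase gene Mvd by 0.30 ± 0.10. With library totals Acat2, Pmvk and Mvd turned to -0.072, -0.041 and -0.050, and Mvk fell to 0.025. Without the ZT20 libraries Acat2 (0.15), Mvk (0.22) and Mvd (0.21) were no longer called (adjusted p of 0.0919 to 0.249). At the branch point, Fdps, the farnesyl diphosphate synthase gene, was not called (-0.20 ± 0.12, adjusted p = 0.147), but it was called lower in VAT without the ZT20 libraries (-0.35, adjusted p = 0.0210) and with library totals (-0.55, adjusted p = 0.000138). Ggps1, whose enzyme makes geranylgeranyl diphosphate for prenylation, was lower in VAT (74.2 ± 12.8 CPM, SD, n = 17, against 86.7 ± 14.6 CPM, SD, n = 18), by 0.22 ± 0.08 on the log2 scale, and its mean was lower at 6 of 6 hours. With no filter on low counts the Ggps1 call was lost (-0.19, adjusted p = 0.0939).

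From squalene to cholesterol 9 of 12 enzymes were higher in VAT, 0 were lower and 3 were not called, with a median log2 difference of 0.83. The opening pair of steps, squalene synthesis (Fdft1) and squalene epoxidation (Sqle), were both higher at all 6 hours. Sqle (chromosome 15, 59315077 to 59331192) spanned 48.7 to 138 CPM in VAT, median 93.4, and 12.8 to 72.1 CPM in spleen, median 45.1, a log2 difference of 1.01 ± 0.12. Fdft1 (chromosome 14, 63145150 to 63179578) differed by 0.87 ± 0.12, from a mean of 28.4 CPM in spleen to 52.4 CPM in VAT. Lss, the lanosterol synthase gene, differed by 0.65 ± 0.13. Cyp51, the lanosterol demethylase gene (chromosome 5, 4081145 to 4104746), was at 89.3 to 212 CPM in VAT, median 136, and at 31.7 to 122 CPM in spleen, median 71.8. The Cyp51 log2 difference was 1.04 ± 0.10 (adjusted p = 1.6e-10), and some spleen libraries reached into the VAT range.

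The enzymes that strip the methyl groups of lanosterol differed unequally. Hsd17b7, the ketoreductase gene of that complex (chromosome 1, 169949535 to 169969241), had the largest difference of the 32 genes. Its lowest VAT library, at 17.4 CPM, stood just above its highest spleen library, at 17.3 CPM, with medians of 33.7 and 10.7 CPM, and its log2 difference was 1.74 ± 0.14 (adjusted p = 5.4e-14). Nsdhl, the decarboxylase gene, averaged 55.8 against 23.9 CPM (1.25 ± 0.13). Msmo1, the methylsterol oxidase gene, averaged 94.8 against 80.1 CPM (0.25 ± 0.10), and with library totals its sign turned, to -0.093. Without the ZT20 libraries the Msmo1 difference was 0.10 and not called (adjusted p = 0.410).

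Among the last steps Sc5d, the desaturase gene, separated the tissues at every library. It was at 143 to 205 CPM in VAT, median 184, and at 75.2 to 121 CPM in spleen, median 98.4, a log2 difference of 0.91 ± 0.06. Ebp, the sterol isomerase gene, averaged 101 against 59.1 CPM (0.80 ± 0.08). The closing reductase gene Dhcr7 was not called (40.1 ± 7.24 CPM, SD, n = 17, against 38.7 ± 8.94 CPM, SD, n = 18). Nor were the 2 sterol reductase genes of the step after Cyp51, Tm7sf2 (-0.35 ± 0.27) and Lbr (-0.09 ± 0.17). Lbr, which also encodes a lamin receptor of the inner nuclear membrane, was the more abundant of the pair by far, with 364 CPM in VAT and 348 in spleen against 4.12 and 5.24 CPM for Tm7sf2. With library totals all 3 were called lower in VAT, Dhcr7 at -0.27, Tm7sf2 at -0.70 and Lbr at -0.44.

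Levels were also set side by side per kilobase of annotated exon, to compare genes with each other. The annotated exons of each gene were merged, and the transcript in use may be shorter, so the ranks are approximate. Npc2 (84.9 CPM per kb in VAT, 71.0 in spleen) and Lbr (76.5 and 73.1) ranked in the top places of the 32 in both tissues. Insig1 ranked 3 of 32 in VAT (46.9 CPM per kb) and 12 of 32 in spleen (16.2), and Abcg1 ranked 20 in VAT (12.2) and 8 in spleen (21.2). Idi1, Tm7sf2 and Abca1 held the last 3 places in each tissue, at 0.566 to 1.78 CPM per kb.

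Of the SREBP arm 4 of 5 genes were higher in VAT and Scap was not called. Insig1, the sterol-sensing anchor that is itself a target of SREBP (chromosome 5, 28071363 to 28078662), was at 104 to 197 CPM in VAT, median 137, and at 21.7 to 70.8 CPM in spleen, median 50.3. The ranges did not overlap at any hour, and the log2 difference was 1.54 ± 0.09 (adjusted p = 1.1e-17). Its relative Insig2 differed by 0.57 ± 0.09, from 34.5 CPM in spleen to 50.9 CPM in VAT. Srebf2, the gene of the SREBP that chiefly drives sterol synthesis, differed by 0.41 ± 0.06 (206 against 154 CPM) and with library totals by 0.062, then not called. Srebf1, whose product chiefly drives fatty acid synthesis, differed by 0.24 ± 0.08 (152 against 125 CPM), and its sign turned with library totals (-0.11). Scap, the escort of SREBP, averaged 61.4 CPM in VAT and 57.8 CPM in spleen (0.04 ± 0.09, adjusted p = 0.698), and with library totals it was called lower in VAT (-0.30, adjusted p = 0.00270).

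In the LXR and efflux arm 3 of 4 genes were lower in VAT. Abca1, the exporter that loads lipid-poor apolipoproteins (chromosome 4, 53030787 to 53159895), was at 1.98 to 11.1 CPM in VAT, median 4.36, and at 8.16 to 23.4 CPM in spleen, median 14.7. The 2 lowest spleen libraries came within the VAT range, and the log2 difference was -1.45 ± 0.20 (adjusted p = 4.5e-08). Abcg1, the exporter that passes cholesterol to high-density lipoprotein, was at 64.3 to 124 CPM in VAT, median 84.3, and at 94.2 to 216 CPM in spleen, median 142, a log2 difference of -0.79 ± 0.07. Mylip, the ligase gene under LXR control, averaged 55.7 against 69.3 CPM (-0.31 ± 0.11). Nr1h2, which encodes the receptor LXR beta, was the exception at 109 against 91.7 CPM (0.26 ± 0.06), a sign that turned with library totals (-0.090).

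Macrophages carry much ABCA1, and most macrophage transcripts examined were, like Abca1 and Abcg1, lower in VAT. The summed level of 8 macrophage or monocyte markers was 6.94 to 23.2 CPM in VAT and 27.0 to 108 CPM in spleen, and 7 of the 8 had the higher mean in spleen. Csf1r, the receptor that defines the lineage, averaged 0.789 CPM in VAT, where it was at 0 in 3 libraries, and 19.0 CPM in spleen. B cell markers summed to 93.6 to 305 CPM in VAT and 1197 to 3084 CPM in spleen, nearly all of it Ighm. Of these 6 markers 4 had the higher mean in spleen, and Ms4a1 and Pax5 had it in VAT. Cd79b averaged 14.9 CPM in VAT and 31.8 in spleen, and Cd79a 1.63 and 3.26, with neither at 0 in any library. Pax5, the defining B lineage factor, was at 0 in 12 of 17 VAT and 10 of 18 spleen libraries. The part of macrophages and B cells in the lower Abca1 and Abcg1 of VAT was not tested.

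The transport genes were divided. Stard4, a START-domain carrier that moves cholesterol between membranes, was at 59.2 to 113 CPM in VAT and 24.4 to 58.9 CPM in spleen, with no overlap and a log2 difference of 1.16 ± 0.10. Npc1 and Npc2 together pass lipoprotein cholesterol out of the lysosome. Npc1, the membrane protein gene, was lower in VAT at 23.7 against 38.4 CPM (-0.71 ± 0.09), and lower at 6 of 6 hours. Npc2, the soluble partner, was higher at 462 against 386 CPM (0.28 ± 0.05), with the sign turned by library totals (-0.069).

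The second comparison asked whether these genes followed a 24 h cycle in either tissue. Averaged over the 20 enzymes, the courses ran opposite ways: in VAT levels were highest from ZT16 to ZT0 and lowest at ZT8, and in spleen highest at ZT8 and lowest at ZT16 and ZT20. The average log2 deviation of the 20 enzymes from each gene's tissue mean was -0.23 in VAT and 0.19 in spleen at ZT8, and 0.24 in VAT and -0.22 in spleen at ZT20. At ZT8 the VAT libraries lay between -0.35 and -0.11 and the spleen libraries between 0.15 and 0.22, so they did not overlap. At ZT20 the VAT libraries lay at 0.22 and 0.26 and the spleen libraries between -0.39 and -0.09. Both hours were picked after the values were seen, so these spans are a description and no test of a difference.

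**Figure D2:**
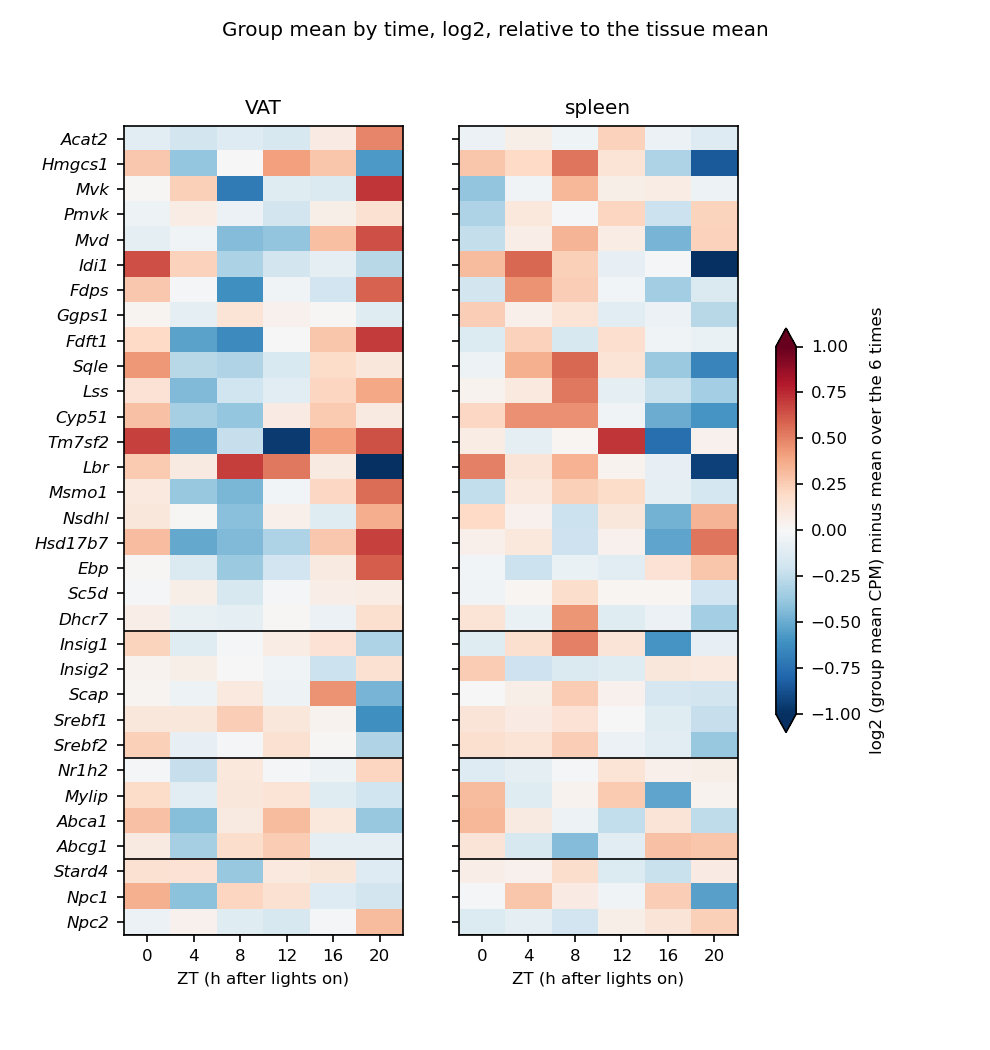
Log2 of each group's mean CPM minus the gene's mean over the 6 times, in VAT and spleen, with lines between the arms (synthesis, SREBP regulators, LXR and efflux, transport). In the synthesis block VAT is mostly blue at ZT4 and ZT8 and red at ZT20, and spleen is mostly red at ZT4 and ZT8 and blue at ZT16 and ZT20; Lbr and Hmgcs1 are blue at ZT20 in both.

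A cosine of 24 h fitted to all libraries gave a peak time and a peak-to-trough amplitude in log2 units for each gene. In VAT 4 of the 32 genes were called rhythmic, and 1.88% of all genes were. All 4 were enzymes from squalene to cholesterol, and they peaked late in the dark. In spleen 3 of the 32 were called, and 1.99% of all genes were. They were 2 enzymes that peaked in the light and the exporter gene Abcg1, which peaked in the dark.

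In VAT the call with the smallest p was that of Fdft1, the squalene synthase gene. Its libraries were at 56.5, 57.9 and 62.8 CPM at ZT0, at 42.4, 27.2 and 36.8 CPM at ZT4, at 24.7, 43.0 and 31.6 CPM at ZT8. From ZT12 they were at 47.1, 42.5 and 63.9 CPM, then at 59.2, 66.5 and 61.6 CPM at ZT16 and at 81.8 and 85.1 CPM at ZT20. The ZT20 libraries were the highest of the tissue, and those of ZT4 and ZT8 the lowest apart from an overlap with ZT12. The amplitude was 1.25 ± 0.24 with a peak at ZT18.93 (adjusted p = 0.0120). In spleen Fdft1 had an amplitude of 0.16 ± 0.24, and the difference between the tissues was not called (adjusted p = 0.231).

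Msmo1, Hsd17b7 and Ebp had courses of the same form in VAT. Msmo1 was at 52.2 to 96.0 CPM at ZT8 and at 135 and 143 CPM at ZT20, with an amplitude of 0.93 ± 0.19 peaking at ZT18.9 (adjusted p = 0.0210). Hsd17b7 was at 17.8 to 34.3 CPM at ZT4 and at 63.3 and 51.6 CPM at ZT20 (1.19 ± 0.27, ZT19.74, adjusted p = 0.0365). Ebp was at 67.5 to 85.2 CPM at ZT8 and at 160 and 151 CPM at ZT20 (0.75 ± 0.16, ZT19.94, adjusted p = 0.0210). For all 3 the ZT20 libraries lay above every ZT8 library. In spleen Ebp and Hsd17b7 were also highest at ZT20, with amplitudes of 0.40 ± 0.15 (peak ZT18.48) and 0.46 ± 0.29 (peak ZT22.98). Msmo1 peaked at ZT9.07 in spleen (0.50 ± 0.18). None of the 3 was called in spleen. Nor was the difference between tissues called for Msmo1, Hsd17b7 or Ebp (adjusted p of 0.0679, 0.581 and 0.719, edgeR).

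These VAT calls depended on the last hour. Without the ZT20 libraries 0 of the 32 genes were called in VAT (0.117% of all genes), with amplitudes of 1.15 for Fdft1, 0.81 for Msmo1, 1.10 for Hsd17b7 and 0.51 for Ebp. With each library's length slope as a covariate the count was again 0 (0.17% of all genes), with amplitudes of 1.16, 0.99, 1.20 and 0.45 in that order. The size of the cycle thus changed little for Fdft1, Msmo1 and Hsd17b7, and the adjusted p was 0.0805 to 0.344 in these 2 fits. Msmo1 and Hsd17b7 were also not called with library totals or with time as a factor (adjusted p of 0.0548 to 0.0708). Fdft1 alone was called when VAT was fitted by itself (0.295% of all genes). Leaving out VAT ZT8 B alone left 1 gene called (81 of all 15876 genes), and leaving out VAT ZT8 D left 2 (186 of 15852). Without VAT ZT20 A, and then without VAT ZT20 C, only 1 VAT library of ZT20 remained, so sizes alone are given and no call. The amplitudes were then 0.90 and 0.87 for Msmo1. They were 1.11 and 1.21 for Hsd17b7 and 0.65 and 0.68 for Ebp.

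**Figure D3:**
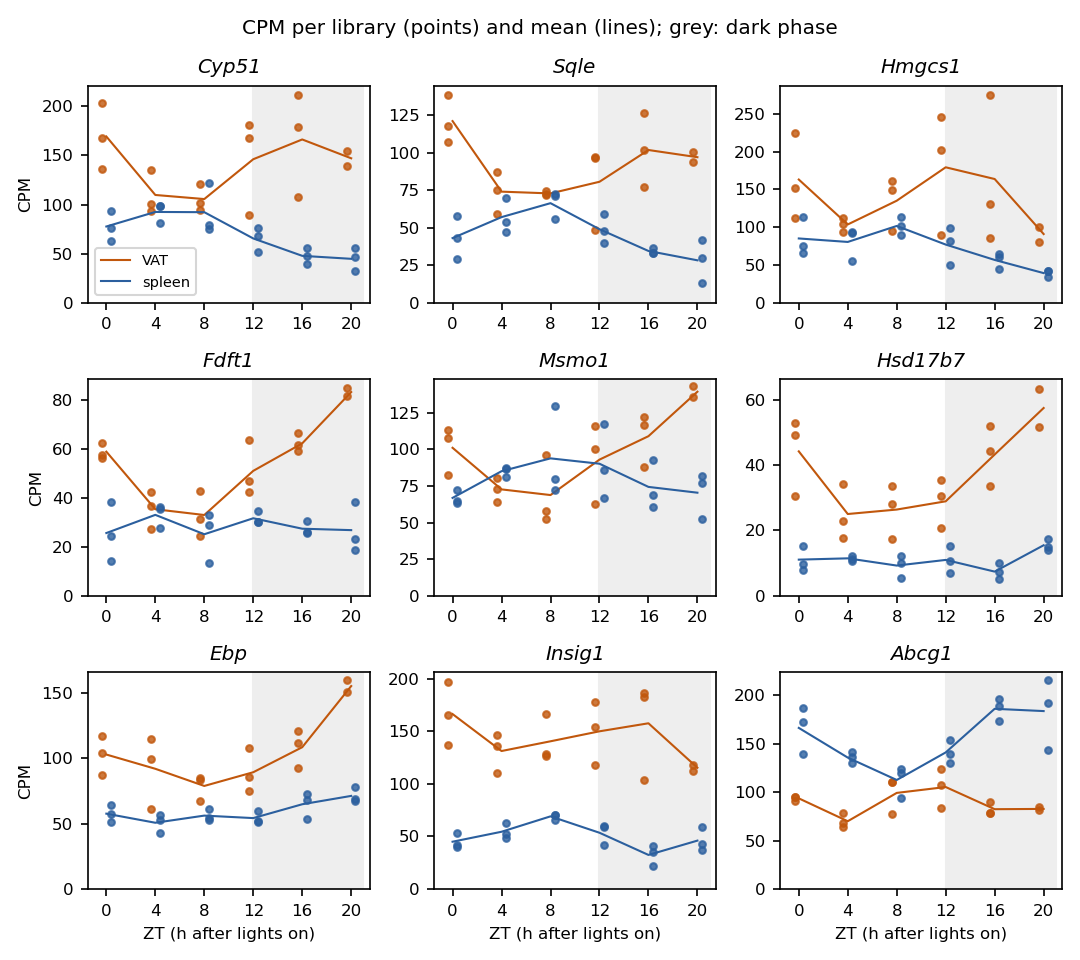
CPM of each library (points) and group mean (lines) against ZT for 9 genes, VAT in orange and spleen in blue, with the dark phase in grey. Cyp51 and Sqle fall from ZT8 to ZT20 in spleen (means of 92.2 to 44.7 and 66.3 to 28.2 CPM), while Fdft1, Msmo1, Hsd17b7 and Ebp are highest at ZT20 in VAT.

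Cyp51 had the smallest p of the 32 for a difference in course between the tissues. In spleen its libraries were at 76.3, 63.0 and 93.5 CPM at ZT0, 80.7, 98.4 and 98.1 CPM at ZT4 and 122, 75.5 and 78.8 CPM at ZT8. They then fell to 51.7, 68.1 and 76.5 CPM at ZT12, 55.9, 39.2 and 48.0 CPM at ZT16 and 56.1, 31.7 and 46.1 CPM at ZT20. Every library of ZT4 and ZT8 was above every library of ZT16 and ZT20. The spleen amplitude was 1.16 ± 0.21 with a peak at ZT5.52 (adjusted p = 0.00688). With the length slope as a covariate it was 0.89 (adjusted p = 0.0403, edgeR).

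In VAT Cyp51 ran the other way, without being called rhythmic there (0.69 ± 0.22, peak ZT18.8, adjusted p = 0.153). Its VAT libraries were at 136, 168 and 204 CPM at ZT0, 135, 100 and 93.7 CPM at ZT4 and 102, 121 and 94.5 CPM at ZT8. In the dark they were at 89.3, 168 and 181 CPM at ZT12, 179, 212 and 108 CPM at ZT16 and 154 and 140 CPM at ZT20. The spread within ZT12 and ZT16 was wide. The difference in rhythm between the tissues was called for 1 of the 32 genes, Cyp51, which was also the 1 gene called among all 15910 (0.00629%). The curve of the difference spanned 1.82 on the log2 scale (adjusted p = 0.0321).

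Leaving out single libraries gave 0.0048 to 0.116 for that adjusted p, and the call was kept in 23 of 35 such fits. The span stayed between 1.70 and 1.97. The 12 libraries without which it was lost were VAT ZT4 C and D, VAT ZT8 B, C and D, VAT ZT16 A and B, spleen ZT4 C and D, spleen ZT8 B, spleen ZT16 B and spleen ZT20 C. Without any ZT20 library the span was 1.86 (adjusted p = 0.0215), and with the length slope 1.79 (adjusted p = 0.00215). The call was lost with library totals (adjusted p = 0.0781), with the replicate letters as a block (0.0927) and with time as a factor (0.164, all edgeR).

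Sqle, which encodes the oxygen-dependent squalene epoxidase, had the next-lowest p of the 32 for the difference. In spleen it was at 72.1, 55.9 and 70.8 CPM at ZT8 and at 41.8, 12.8 and 29.9 CPM at ZT20, without overlap, and its amplitude was 1.16 ± 0.23 (peak ZT6.93, adjusted p = 0.0128). In VAT it was at 74.4, 71.6 and 72.3 CPM at ZT8 and at 93.4 and 100.4 CPM at ZT20, also without overlap (0.70 ± 0.23, peak ZT20.52, adjusted p = 0.180). The Sqle difference spanned 1.82 and missed the threshold (adjusted p = 0.0621), and it passed without the ZT20 libraries (1.89, 0.0186) and with the slope (1.83, 0.00298), so that 2 of the 32 genes differed in either fit (0.165% and 0.0189% of all genes). The Sqle difference missed the threshold with library totals (adjusted p = 0.0781), the replicate letters as a block (0.0969) and time as a factor (0.196, all edgeR). With time as a factor the spleen call of Sqle was lost (adjusted p = 0.0573). It was also lost with the slope (0.82, adjusted p = 0.137), which left Cyp51 and Abcg1 in spleen (0.654% of all genes), and without ZT20 the spleen count was 4, with Insig1 as the added gene (1.95%).

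Abcg1 in spleen ran against the enzymes. Its libraries were at 94.2, 124 and 120 CPM at ZT8, at 173, 196 and 189 CPM at ZT16 and at 192, 216 and 143 CPM at ZT20. All ZT16 and ZT20 libraries were above all ZT8 libraries, and the amplitude was 0.71 ± 0.14 with a peak at ZT19.32 (adjusted p = 0.0151). The call was lost without spleen ZT8 B (adjusted p = 0.0533) and with the replicate letters as a block (0.0596, both edgeR). In VAT it was not called (0.26 ± 0.14, adjusted p = 0.528), and the difference between tissues did not pass (adjusted p = 0.232). Abca1 was not called in either tissue, with amplitudes of 0.21 ± 0.38 in VAT and 0.31 ± 0.35 in spleen.

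**Figure D4:**
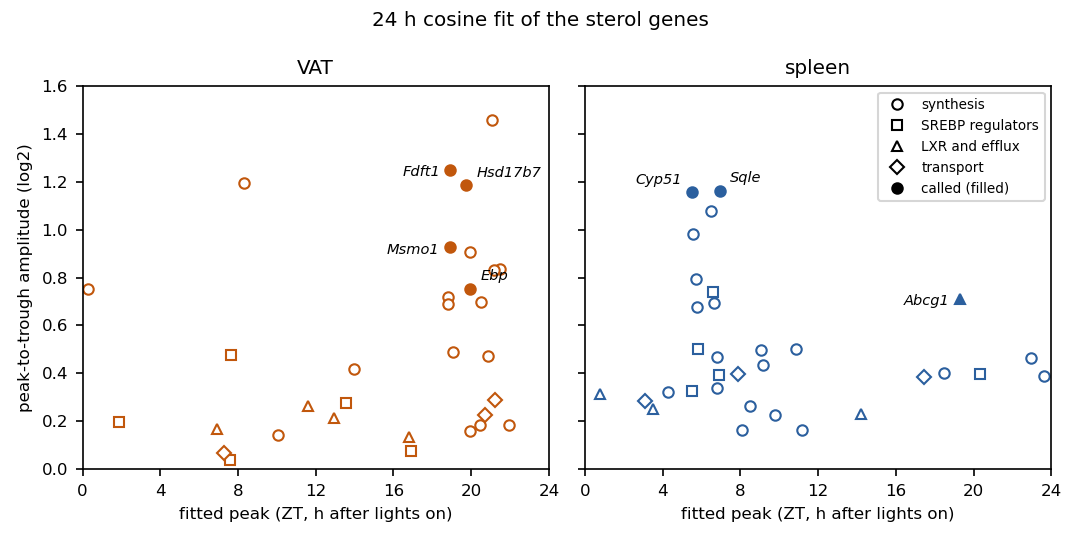
Fitted peak time (ZT, hours after lights on) against peak-to-trough amplitude (log2) for the 32 genes in VAT and spleen, with filled points for genes called rhythmic. Enzymes (circles) gather at ZT18 to ZT22 in VAT (16 of 20) and at ZT4 to ZT10 in spleen (15 of 20).

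The fitted peaks of the enzymes gathered in windows chosen after the values were seen, so they are given as a description. In VAT 16 of 20 enzymes peaked between ZT18 and ZT22, against 26.3% of all genes, and 1 of 20 between ZT4 and ZT10. In spleen 15 of 20 peaked between ZT4 and ZT10, against 29.2% of all genes, and 1 of 20 between ZT18 and ZT22. Without the ZT20 libraries these were 14 of 20 in VAT (24.9%) and 13 of 20 in spleen (29.2%), and with the slope 16 of 20 (22.0%) and 14 of 20 (26.0%). Most of these peaks belong to genes that were not called and are loosely placed, and all come from the same 35 libraries. The median amplitude over the 20 enzymes was 0.73 in VAT and 0.47 in spleen, against 0.52 and 0.48 over all genes.

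Early enzymes were not called in either tissue, although some amplitudes were as large as those called later in the pathway. Hmgcs1 in spleen fell from 102 CPM at ZT8 to 39.1 CPM at ZT20, with libraries at 113, 102 and 89.3 CPM and at 42.0, 34.0 and 41.4 CPM (1.08 ± 0.34, adjusted p = 0.177). Hmgcs1 was also lowest at ZT20 in VAT (90.9 CPM), where its ZT16 libraries ran from 85.8 to 275 CPM. Mvd in VAT was at 46.4, 30.6 and 27.8 CPM at ZT8 and at 60.8 and 86.8 CPM at ZT20 (0.91 ± 0.24, peak ZT19.96, adjusted p = 0.0725, and 0.0234 without VAT ZT0 C). Fdps peaked at ZT21.18 in VAT and ZT5.78 in spleen, with amplitudes of 0.83 ± 0.25 and 0.68 ± 0.23, neither called.

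Lbr had the widest swing between hours in VAT, a 5.14-fold ratio of the means, without a call (1.20 ± 0.46, adjusted p = 0.278). Its 2 VAT ZT20 libraries, at 123 and 73.7 CPM, lay below all other VAT libraries, which ran from 187 to 567 CPM. In spleen the ZT20 libraries were at 259, 157 and 107 CPM and the mean at ZT0 was 473 CPM. With the length slope as a covariate the Lbr amplitude in VAT was 0.45, and without the ZT20 libraries 0.57.

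The SREBP regulators showed shallower courses and 0 of 5 were called in either tissue. Insig1 in spleen was at 70.4, 70.8 and 66.1 CPM at ZT8 and at 40.9, 21.7 and 34.8 CPM at ZT16, with no overlap (0.74 ± 0.20, peak ZT6.61, adjusted p = 0.0799). Srebf2 in spleen had an amplitude of 0.50 ± 0.15 with a peak at ZT5.81 (adjusted p = 0.116). In VAT both were nearly level by the fit, at 0.07 ± 0.20 for Insig1 and 0.04 ± 0.16 for Srebf2. Srebf1 was lowest at ZT20 in VAT, at 91.1 and 100.6 CPM, against 105 to 208 CPM at the other hours (0.48 ± 0.18, adjusted p = 0.262). Of the transport genes none was called over time, the nearest being Npc2 in spleen (0.39 ± 0.11, peak ZT17.45, adjusted p = 0.114).

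**Figure D5:**
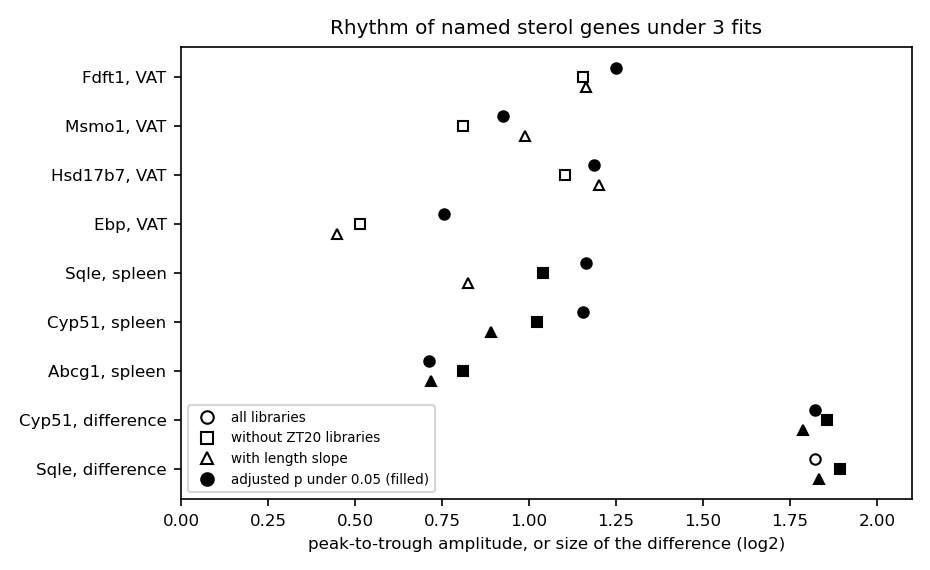
Peak-to-trough amplitude, or span of the tissue difference for the bottom 2 lines, in log2 units, fitted to all libraries (circles), without the ZT20 libraries (squares) and with the length slope (triangles), filled where the adjusted p was under 0.05. The 4 VAT genes are filled for all libraries alone, and the Cyp51 difference is filled in all 3 fits.

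Other genes of sterol handling were taken from lists of 7 kinds, of which 66 genes were tested. Between the tissues 26 of the 66 were higher in VAT and 15 lower, with a median log2 difference of -0.04, where 28.4% of all genes were higher and 33.8% lower with a median of -0.10. Other synthesis genes leaned to VAT, with 6 of 8 higher and 0 lower, and the isoprenoid branches did not, with 4 of 15 higher and 3 lower. Uptake and lysosomal release had 4 of 10 higher and 3 lower, and the other LXR, efflux and storage genes 6 of 11 higher and 3 lower. SREBP processing and sterol-regulated degradation had 2 of 11 higher and 3 lower, intracellular transport had 4 of 10 higher and 3 lower, and of the oxysterol enzymes 1 was tested and 0 called.

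Pgrmc1, Lipa, Stard5 and Lpcat3 were among the 5 with the smallest adjusted p. Pgrmc1, a heme-binding partner of cytochrome P450 enzymes, averaged 215 CPM in VAT and 89.9 CPM in spleen (1.27 ± 0.06), beside its partner Cyp51. Lpcat3, a phospholipid acyltransferase under LXR control, was also higher (1.32 ± 0.08), unlike the LXR-controlled Abca1, Abcg1 and Mylip. The lysosomal lipase gene Lipa (102 against 228 CPM, -1.16 ± 0.06) and the START-domain gene Stard5 (-1.51 ± 0.08) were lower, as was Npc1. Over time 0 of the 66 were called in VAT and 2 in spleen, where 1.88% and 1.99% of all genes were. For 0 of the 66 did the rhythm differ between tissues.

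Reads of 25 nt leave some of these genes uncertain. Of the distinct 25-base words in the annotated transcripts of Acat2, 45.5% also occur in another gene, chiefly Acat3, and the share was 34.1% for Fdft1 (17.8% with Ctsb), 28.4% for Fdps and 27.8% for Idi1. It was 18.6% for Ggps1, 15.2% for Tm7sf2 and 13.8% for Hmgcs1, mostly copies that are listed as separate genes or overlapping neighbours. For Cyp51 it was 4.73%, for Sqle 1.65%, for Hsd17b7 0.902%, for Abca1 0.0193%, and for Mvd, Nsdhl and Ebp 0%.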

How the data were processed

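RNA of sorted Tregs was primed with oligo-dT, amplified and sequenced as paired reads of 25 nt, per the labels' protocols. The authors deposited raw counts per gene symbol, which came from STAR 2.7.3a alignment to mm10 and featureCounts, according to the submitters' processing notes. The annotation, strand setting and multiple-mapping rule were not given in the sources used here, and no molecular identifiers are named, so amplified copies are not independent.

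Counts of 35 libraries were tested with edgeR 4.0.16 (R 4.3.3): filterByExpr, TMM factors, robust quasi-likelihood fit and Benjamini-Hochberg adjustment over 15910 genes, threshold 0.05. The tissue contrast averaged the 6 hours. Rhythm used the cosine and sine of 24 h within each tissue in 1 model. Amplitudes run from peak to trough. CPM values use TMM-scaled totals. The enzyme average used log2(CPM + 0.5). On simulated counts with 15910 genes, the tissue contrast recovered 100 of 100 genes changed 2-fold and 85 of 100 changed 1.5-fold. A share of 0.0887 of its calls was false, above the threshold of 0.05. All changed genes had a higher average CPM than Idi1, Tm7sf2, Abca1, Fdps, Mvk and Pmvk, so recovery at such levels was not tested. Few genes were changed, where 62.2% were called in the data, so recovery and false share may differ there. The VAT rhythm test recovered 72 of 100 at an amplitude of 1 and 17 of 100 at 0.6, and the test of the rhythm difference 17 of 100 at 1 and 2 of 100 at 0.6.

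Positions and exon lengths are from GENCODE M21 (GRCm38), matched by symbol (52830 symbols, all 32 members). Alternatives were library totals, DESeq2 1.42.0, no count filter, a replicate block, each library or all ZT20 libraries left out, the length slope, each tissue alone and time as a factor. Members and lists were chosen with earlier results of these data known. All members are named, and of the other sterol genes the 5 called with the smallest adjusted p in each comparison. Some genes that this rule names are not reported here.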

Additional observations from a re-analysis of the deposited data

Results flagged for a closer look

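The course of Cyp51 over the day differed between VAT and spleen Tregs by a test of the difference itself (edgeR's quasi-likelihood test, adjusted p = 0.0321 over 15910 genes, span 1.82 on the log2 scale). The call was lost with library totals (adjusted p = 0.0781), with time as a factor (0.164), with the replicate letters as a block and in 12 of 35 fits that left out 1 library (up to 0.116). In spleen 6 of 6 libraries of ZT4 and ZT8 lay above all 6 of ZT16 and ZT20.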

How the results depend on the processing

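The direction of the tissue difference and its call were the same under all 41 alternatives for 17 of the 32 genes. Library totals gave 13 genes higher in VAT and 10 lower (2856 and 8514 of all 15910). With them 2 were rhythmic in VAT (1.23% of all genes) and 0 had a rhythm that differed between tissues (0 of all 15910). Library totals also changed signs. They reversed Acat2 (-0.072), Pmvk (-0.041), Mvd (-0.050), Msmo1 (-0.093), Srebf1 (-0.11), Nr1h2 (-0.090) and Npc2 (-0.069), all then not called, as the median of all genes moved to -0.45. DESeq2 called 6 genes rhythmic in spleen (853 of the 10663 genes it gave an adjusted p) and 3 differing between tissues (22 of 15900). With no filter on low counts 7 were rhythmic in VAT, 6 in spleen and 9 differed, against 3.31%, 3.04% and 3.26% of 47525 genes. Without the ZT20 libraries 18 were higher in VAT (Acat2, Mvk, Mvd and Msmo1 lost) and 6 lower (Fdps added), against 4290 and 4852 of all 14585 genes. In that fit 0 were rhythmic in VAT and 2 differed (0.117% and 0.165% of all genes). With the length slope the counts were likewise 0 and 2 (0.17% and 0.0189%). VAT fitted alone gave 1 rhythmic gene (0.295% of all genes), and time as a factor gave 0 that differed (0.00629%).

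Leaving out each library in turn gave 21 to 22 genes higher in VAT, 5 lower in every case, 1 to 5 rhythmic in VAT, 2 to 5 rhythmic in spleen and 0 to 3 that differed. The rhythm difference gained Sqle without VAT ZT0 A or C, VAT ZT20 A or C, spleen ZT0 C, ZT4 B, ZT12 A, ZT16 A, ZT20 A or ZT20 B (adjusted p of 0.0205 to 0.0483, edgeR), and Msmo1 without spleen ZT12 A. Spleen reached 5 rhythmic genes without ZT16 A, where 569 of all 15833 genes were called. The VAT count was 1 without VAT ZT8 B and 5 without VAT ZT0 C, where 81 of 15876 and 1008 of 15844 genes were called. Pmvk lost its tissue call without VAT ZT4 B, VAT ZT20 A, spleen ZT12 D or spleen ZT16 A (0.25 to 0.27), Mvk without VAT ZT4 D (0.32) and Msmo1 without VAT ZT8 C (0.20).

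In the rhythm fits the replicate letters of the labels were used as a block. In the tissue contrast the block was the hour together with the letter, which pairs same-letter VAT and spleen libraries. With this replicate block 2 genes were rhythmic in VAT (Hsd17b7 and Ebp lost), 2 in spleen (Abcg1 lost, adjusted p = 0.0596, edgeR), 0 differed between tissues (Cyp51 at 0.0927, Sqle at 0.0969), and 18 were higher in VAT, with Acat2, Mvk, Mvd and Msmo1 lost. Same-letter VAT and spleen libraries of 1 hour did not deviate together (17 pairs, r of -0.112 to 0.0575 across genes), so the main fits did not pair samples by letter. Depth limits Idi1, Tm7sf2 and Abca1, which had 206 to 358 counts over all libraries of the tissue where each was lower.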
